A study of Mus musculus with 8 samples.

Results

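The genes described here are the ligands and receptors of the tumour necrosis factor (TNF) superfamily and the TRAF adaptor proteins, measured by RNA sequencing in the epididymal fat pad, a white adipose depot attached to the testis and epididymis. They were found by gene symbol alone: 46 of the 24821 genes in the deposited table carry a protein-coding symbol of the Tnfsf, Tnfrsf or Traf series or are Tnf, Lta, Ltb, Ltbr, Fas, Fasl, Cd27 or Eda2r. Cd70, which the symbols would also include, had no row in the table used here. By role the 46 genes are 15 ligands, 24 receptors and 7 TRAF adaptors. The study compared 4 wild type (WT) libraries with 4 libraries of Ccdc92 knockout (KO) mice, all from males on a C57BL/6 background, the WT mice being littermates of the same age. Both groups were fed for 14 weeks on a high fat diet, in which fat supplied 60% of calories and protein and carbohydrate 20% each, so every comparison is between fat depots of mice on that diet. The labels give neither the age of the mice, nor the part of Ccdc92 that was removed, nor whether the libraries are from different animals. The p-values therefore reflect the spread between these libraries alone, which may be technical.

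TNF superfamily ligands are mostly trimeric membrane proteins, some of which are shed, and each binds its own receptors. Receptors with a cytoplasmic death domain can recruit adaptors that start cell death or inflammatory signalling, receptors without it bind TRAF proteins and lead to NF-kappaB and MAP kinase signalling, and decoy receptors bind ligand without transmitting a signal. In obese fat, TNF is made largely by macrophages, and it is known to oppose insulin action and adipocyte differentiation.

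Library depth was 23681088 to 33817478 reads assigned to genes, and Ccdc92 itself had 59 to 114 reads in WT and 4 to 9 in KO libraries. Values below are normalized counts as deposited, that is, reads divided by a size factor of each library, and fold changes are KO over WT of log2(normalized count + 1), fitted with limma over all genes and called at a Benjamini-Hochberg adjusted p under 0.05. Marker genes of several cell types differed in level between the groups. Beside the counts that follow, 21.5% of all genes tested were lower in KO and 20.2% were higher. A list of 13 macrophage markers summed to 125200 to 261300 in WT and 47340 to 73840 in KO and fell in 11 of 13 members, while 13 of 15 adipocyte markers rose, with sums of 403000 to 725400 and 1449000 to 1850000. T cell markers fell in 8 of 13 members, their sums lying between 3160 and 5631 in WT and between 1089 and 1944 in KO. Il7r held a large part of the WT sums, at 1808.9 to 3735.3 against 198.8 to 455.5 in KO, and the separation of the sums rests on this gene. Genes of the epididymis, the sperm duct beside this depot, summed to 53530 to 119700 in WT and 9.702 to 1338 in KO, with 5 of 8 tested members lower. WT replicate 4 stood apart in this list: Akr1b7 made up most of its sum, at 80635.9 against 188.1 to 211.6 in the other WT libraries, while Adam7 was at 0.9 against 7804.6 to 19828.7. Mast cell markers fell in 7 of 8 members (sums of 4085 to 11570 against 1034 to 1417), with WT replicates 3 and 1 highest, and endothelial markers rose in 6 of 10 (19490 to 35800 against 41880 to 49140). No marker in these 6 lists was at 0 in all libraries of a group, and the part of these differences in the results below was not tested. In bulk tissue, fewer cells of a type and less RNA per cell cannot be told apart.

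A gene was tested if its normalized count reached 10 in 4 or more libraries, which 42 of the 46 did. In KO fat 14 of them fell and 3 rose, and 25 did not pass. Together 40.5% passed, against 41.7% of all 17798 genes tested, so the number of changed superfamily genes was near the background. By direction, 33.3% of the tested superfamily genes were lower, against 21.5% of all genes, and 7.14% were higher, against 20.2%. The median log2 fold change was -0.48, beside -0.01 over all genes tested. By role, the ligands fell in 2 of 11 tested members and rose in 0 (limma; 0 also at an unadjusted p under 0.05, and 0 in edgeR and DESeq2), and the receptors fell in 9 of 24 and rose in 3. WT and KO libraries did not overlap in 18 of the 42 genes (42.9%, against 42.1% of all genes), namely all 17 that passed and Tnfrsf25. KO was the lower group in 14 of the 18 and the higher in 4. Of the 7496 genes without overlap among all 17798 tested, KO was lower in 3760 (21.1% of all tested) and higher in 3736 (21.0%). For each of the 17, a two-sided exact permutation test gave p = 0.0286, the smallest it can give with 4 libraries against 4. Any gene whose groups do not overlap gets this value, so the test adds nothing to the separation already stated. The 3 rises were the less stable part: without WT replicate 3 none of them passed limma's test, and without WT replicate 2 only Fas did.

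**Figure D1:**
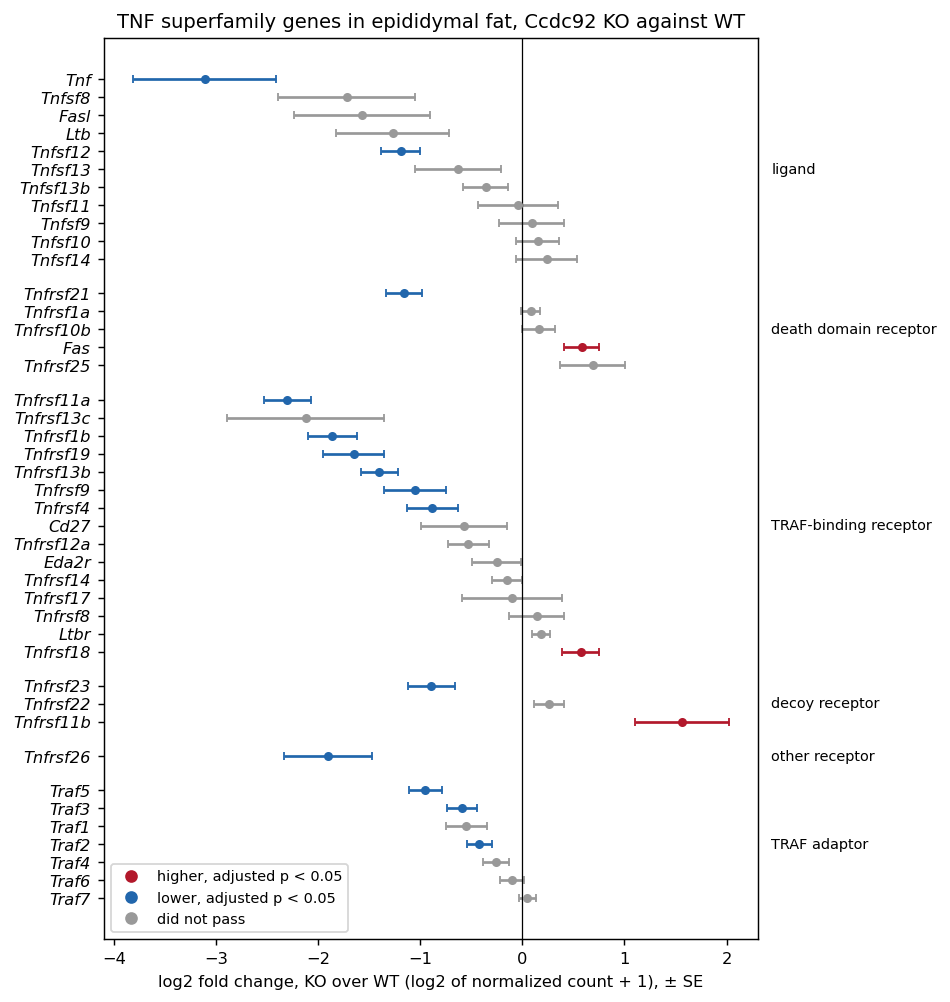
Log2 fold change (KO over WT, horizontal axis) with its standard error for the 42 tested genes, grouped by role. Blue points are the 14 genes that passed and were lower, red points the 3 that passed and were higher, and grey points the 25 that did not pass; Tnf and Tnfrsf11a lie farthest to the left and Tnfrsf11b farthest to the right.

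The promoters of 3 members are shown because the changes described next turn on these genes: Tnf, its receptor Tnfrsf1b and the RANK receptor Tnfrsf11a, all of which fell. Each sequence is the 250 bases before the RefSeq start of the gene on build GRCm38.p6, written 5′ to 3′ on the strand of the gene. Capitals mark TATAAA and GGGCGG (the core of the TATA box and the GC box) on either strand, where GGGCGG on the opposite strand reads CCGCCC. Also searched on both strands were a form of the NF-kappaB motif and GAGGAAGT, a form of the PU.1 motif, and neither occurs in these windows.
Tnf, chr17:35202008-35202257, minus strand: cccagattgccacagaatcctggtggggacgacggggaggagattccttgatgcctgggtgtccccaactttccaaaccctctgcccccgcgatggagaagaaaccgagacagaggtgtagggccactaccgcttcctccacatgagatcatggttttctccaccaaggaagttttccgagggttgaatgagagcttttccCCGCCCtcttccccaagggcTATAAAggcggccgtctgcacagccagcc
Tnfrsf1b, chr4:145246871-145247120, minus strand: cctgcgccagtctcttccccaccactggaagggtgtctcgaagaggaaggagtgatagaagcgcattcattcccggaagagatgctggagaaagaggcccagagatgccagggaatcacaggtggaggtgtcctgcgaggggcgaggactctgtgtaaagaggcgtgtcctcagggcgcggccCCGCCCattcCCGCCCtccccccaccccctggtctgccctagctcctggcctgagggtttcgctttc
Tnfrsf11a, chr1:105780473-105780722, plus strand: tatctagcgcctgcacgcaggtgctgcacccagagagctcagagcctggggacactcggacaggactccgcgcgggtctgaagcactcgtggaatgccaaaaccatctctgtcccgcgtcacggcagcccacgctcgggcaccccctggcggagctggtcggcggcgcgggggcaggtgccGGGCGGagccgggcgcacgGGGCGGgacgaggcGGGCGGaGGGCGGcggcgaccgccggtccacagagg

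The Tnf window held 1 TATAAA, from 29 to 24 bases before the start, and 1 GGGCGG on the opposite strand. Tnfrsf1b held 2 matches to GGGCGG, and Tnfrsf11a held 4. Among 32817 promoter windows of this length in the RefSeq table, 12.4% hold TATAAA, 32.7% GGGCGG, 4.11% the NF-kappaB form and 2.44% GAGGAAGT on either strand. Windows were found for 39 of the 46 genes. A gene counted as holding a motif if any of its windows did, whereas the shares above are of single windows, so the gene counts and these shares are not strictly comparable. Of the 12 fallen genes with a window, 9 held GGGCGG, 3 held the NF-kappaB form (Tnfrsf13b, Tnfrsf9 and Traf3), 2 held TATAAA and 0 held GAGGAAGT. Of the 22 tested genes with a window that did not pass, 10 held GGGCGG and 2 the NF-kappaB form. The window of Tnfrsf1a, which is among these, held 0 matches to any of the 4 motifs. A match is a run of letters and no evidence of binding.

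Of TNF and its receptors, Tnf and Tnfrsf1b were lower in KO, and Tnfrsf1a did not pass the test. Tnf (ENSMUSG00000024401.14, chr17:35199381-35202007, minus strand) had normalized counts of 115.6, 47.1, 127.2 and 61.8 in WT replicates 1 to 4 and of 14.9, 20.5, 9.7 and 1.2 in KO replicates 1 to 4. All KO libraries lay below all WT libraries, with WT replicates 1 and 3 high and KO replicate 4 lowest. The log2 fold change was -3.11 (SE 0.70, adjusted p = 0.00853 in limma), an 8.64-fold fall on the fitted scale. The size rests in part on KO replicate 4 and on the pseudocount: the log2 fold change of Tnf was -2.41 without that library and -2.31 with a pseudocount of 8, and passed in both. Lta, the secreted lymphotoxin that binds the same receptors, was too low to be tested, at 17, 6, 14 and 19 reads in WT and 4, 3, 2 and 2 in KO.

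Tnfrsf1b (ENSMUSG00000028599.10, chr4:145213463-145246870, minus strand) encodes TNFR2, the TNF receptor without a death domain, which is prominent on leukocytes. It stood at 7890.8, 3942.9, 6281.8 and 4547.7 in WT and at 1522.6, 2015, 1203.9 and 1397.1 in KO. The groups did not overlap, and WT replicates 1 and 3 were again the highest, as they were for the summed macrophage markers (261260 and 192440). In KO the order differed: Tnfrsf1b was highest in replicate 2, and the macrophage sum in replicate 1 (73842, against 67630 in replicate 2). The part of macrophage content in this result was not tested. The log2 fold change of Tnfrsf1b was -1.86 (SE 0.24, adjusted p = 0.000864 in limma). Tnfrsf1a (ENSMUSG00000030341.17, chr6:125349362-125362484, plus strand) encodes TNFR1, the broadly expressed death domain receptor through which most of the inflammatory action of TNF runs. Its values were 6091, 5253.6, 5083.4 and 5412.9 in WT and 5466.4, 6358.7, 5464.8 and 5758.1 in KO. These overlapped, and the log2 fold change of 0.08 did not pass, with a 95% interval from -0.13 to 0.28 (adjusted p = 0.509 in limma). Scaled to exon length, Tnfrsf1b was present at 0.509 to 0.879 times the level of Tnfrsf1a in WT libraries and at 0.15 to 0.215 times in KO libraries.

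**Figure D2:**
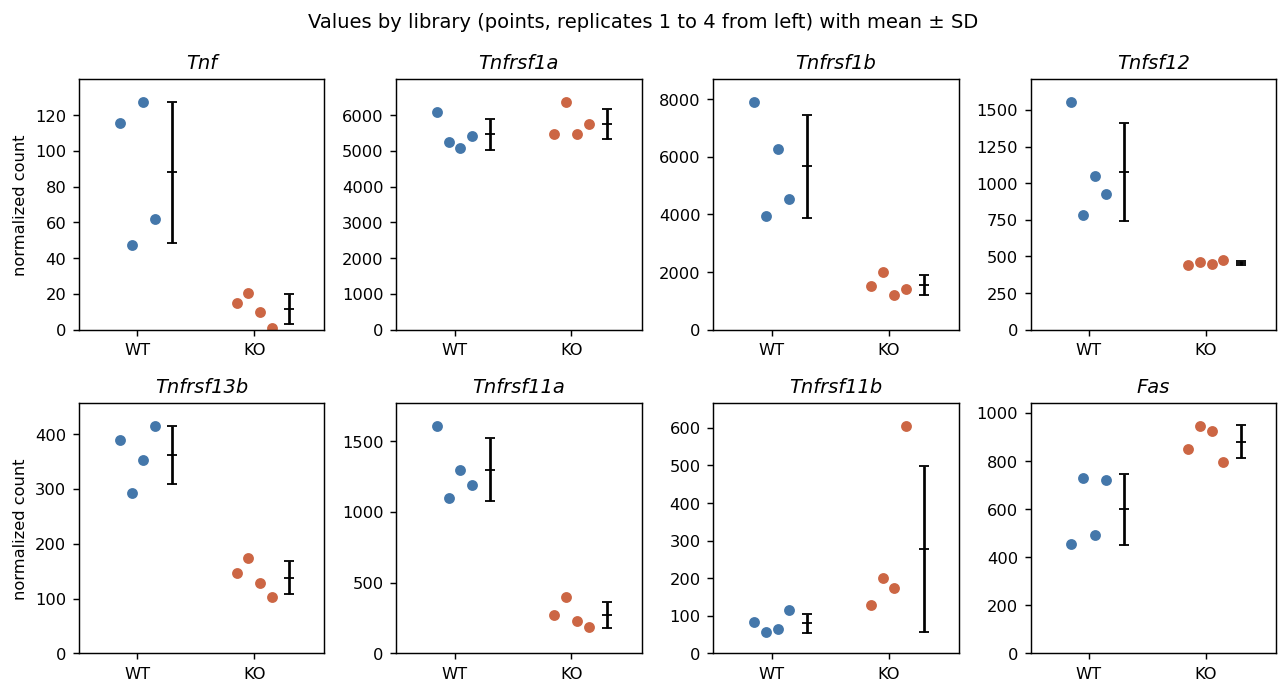
Normalized count (vertical axis, from 0) in each library for 8 members, with WT points in blue, KO points in orange and the mean with SD beside them (n = 4). Tnf, Tnfrsf1b, Tnfsf12, Tnfrsf13b and Tnfrsf11a are lower in every KO library, Tnfrsf11b and Fas are higher in every KO library, and Tnfrsf1a overlaps between groups.

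The receptors of the RANK system moved in opposite directions. Tnfrsf11a (ENSMUSG00000026321.7, chr1:105780718-105847981, plus strand) encodes RANK, the receptor that drives osteoclast formation from myeloid precursors, and it is also found on macrophages. It had 1607.1, 1099.2, 1297.8 and 1188.2 in WT and 268.9, 397.4, 229 and 186.8 in KO. The gap between the lowest WT and the highest KO library was wide, and the log2 fold change of -2.30 (SE 0.23, adjusted p = 0.000406 in limma) had the smallest p of the 42 genes. Tnfrsf11b (ENSMUSG00000063727.3, chr15:54250619-54278484, minus strand) encodes osteoprotegerin, a soluble decoy receptor for RANKL and TRAIL. Its values were 82.6, 57.7, 65 and 114.2 in WT and 128.7, 201.7, 174.1 and 605.2 in KO. KO replicate 4 stood far above the other KO libraries, which themselves lay above all WT libraries. That library also had the highest sum of mesothelial markers, 15021, against 2129.5 to 6176.4 in the other KO libraries and 1624 to 8506 in WT, and the part of this in the result was not tested. The log2 fold change of Tnfrsf11b was 1.56 (SE 0.46, adjusted p = 0.0256 in limma). Dropping WT replicate 1 (adjusted p = 0.0519 in limma), 2 (0.0599) or 3 (0.0645) ended the call, while without KO replicate 4 it was kept at a log2 fold change of 1.09. Per length of exon, Tnfrsf11a was at 4.9 to 9.4 times the level of Tnfrsf11b in WT and at 0.145 to 0.984 times in KO. Tnfsf11, the RANKL gene, was close to the lower limit of the test at 11, 6.7, 13.9 and 9.4 in WT and 10.3, 5.1, 16.1 and 9.7 in KO, and the 95% interval of its log2 fold change ran from -0.93 to 0.84.

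Genes known to respond to RANK in osteoclasts were followed from a list of 11, of which 9 were tested. In KO, 5 fell and 2 rose, beside 21.5% and 20.2% of all genes. Atp6v0d2, a proton pump subunit, had a log2 fold change of -4.25, the protease Ctsk one of -3.40, the fusion protein Dcstamp -3.18 and its relative Ocstamp -2.37. The transcription factor Nfatc1 fell by 0.26 (SE 0.07, adjusted p = 0.0197 in limma). Opposite to these, Acp5, the tartrate-resistant acid phosphatase, rose by 0.95 (SE 0.13, adjusted p = 0.001 in limma) and Mmp9, a gelatinase, by 1.57 (SE 0.47, adjusted p = 0.0264 in limma). The number of rises dropped to 1 when WT replicate 1, 2 or 3 or KO replicate 1 or 4 was left out. Atp6v0d2 is also a marker in the lipid-associated macrophage list used here, in which 11 of 12 members fell, beside 21.5% of all genes.

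Receptors for BAFF and APRIL, ligands that keep B cells and plasma cells alive, were lower for TACI. Tnfrsf13b (ENSMUSG00000010142.12, chr11:61126755-61149372, plus strand), the TACI gene, had 388.9, 292.3, 351.8 and 414.8 in WT and 145.9, 173.5, 129 and 101.9 in KO. The groups were well apart, and the log2 fold change was -1.40 (SE 0.18, adjusted p = 0.000879 in limma). Tnfrsf13c, the BAFF receptor of B cells, varied widely within groups, with values of 20.4 to 108.2 (WT) and 2.4 to 34.4 (KO), and did not pass (-2.12, SE 0.77, adjusted p = 0.0553 in limma). DESeq2 called it (adjusted p = 0.0202), as did limma once WT replicate 3 (0.0429) or KO replicate 3 (0.0293) was dropped. Tnfrsf17, the plasma cell receptor BCMA, was at 9.2 to 45.9 in WT and 10.9 to 29 in KO, with no call. The B cell and plasma cell list had overlapping sums, 31960 to 62220 (WT) and 10130 to 41680 (KO). In it 5 of 12 members were lower, beside 21.5% of all genes. Most of each sum was Ighm, at 24021.6 to 46501.4 in WT and 8670 to 38817.4 in KO, and the overlap of the sums rests on this gene. Tnfsf13b, the BAFF gene, did not pass at 158.7, 124.1, 194.9 and 193.8 in WT against 143.6, 91.4, 127.9 and 161.3 in KO (95% interval -0.86 to 0.14).

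Tnfsf12, Tnfsf13 and a readthrough gene that joins them, Tnfsfm13, share exons on chromosome 11, so their reads cannot be assigned with certainty. Of the exon bases of Tnfsf12, 48.3% also belong to Tnfsfm13, and of those of Tnfsf13, 60.0% do. With that limit, Tnfsf12 (ENSMUSG00000097328.7, chr11:69686250-69695849, minus strand), the gene of TWEAK, was the most abundant ligand per exon length in both groups, at 710.9 ± 221.9 normalized counts per kilobase in WT and 301.0 ± 10.29 in KO (SD, n = 4). Its normalized counts were 1553, 779.9, 1051.8 and 923.2 in WT and 441.3, 458.9, 447.2 and 476.6 in KO. WT replicate 1 was high and the KO libraries were tightly grouped, with no overlap and a log2 fold change of -1.19 (SE 0.19, adjusted p = 0.0019 in limma). Tnfsfm13 fell too (-1.07, SE 0.26, adjusted p = 0.0115 in limma). Tnfsf13, the APRIL gene, lay between 76 and 353.2 in WT and between 98.9 and 126.4 in KO and did not pass (-0.63, adjusted p = 0.258 in limma), although it did without WT replicate 2 (-1.0, adjusted p = 0.0352 in limma). Tnfrsf12a encodes Fn14, the TWEAK receptor, which is induced by injury. It had 558.6, 675.1, 465.1 and 653.6 in WT and 388.4, 580.2, 380.5 and 308 in KO, so that KO replicate 2 reached into the WT range. The log2 fold change of -0.53 did not pass (SE 0.20, adjusted p = 0.0639 in limma), although it did without KO replicate 2 (-0.70, adjusted p = 0.011 in limma).

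Death receptors were mixed. Fas (ENSMUSG00000024778.13, chr19:34290666-34327772, plus strand), the receptor of Fas ligand, had 453.2, 728.9, 492.9 and 721.9 in WT and 848.1, 946, 925.5 and 798 in KO. WT replicates 1 and 3 were low and no library overlapped, and Fas rose by 0.58 (SE 0.17, adjusted p = 0.0236 in limma). That call did not survive dropping WT replicate 3 (adjusted p = 0.0655 in limma), nor dropping KO replicate 2 (0.0559) or 3 (0.06). Fasl, made by cytotoxic lymphocytes, was low at 23.9, 5.8, 15.8 and 19.7 in WT and 2.3, 1.7, 17.2 and 3.6 in KO. KO replicate 3 lay among the WT libraries. The log2 fold change of Fasl was -1.57 (SE 0.67, adjusted p = 0.0928 in limma), and without KO replicate 3 it was -2.17 and passed (adjusted p = 0.0173 in limma). That library had the largest T cell and NK cell marker sums of the KO group, 1944.5 and 419.21. In WT libraries these sums were 3160 to 5631 and 320.1 to 375.0, and their part in the Fasl result was not tested.

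Tnfrsf21 (ENSMUSG00000023915.5, chr17:43016555-43089189, plus strand) encodes death receptor 6. It fell from 1609.9, 1458.9, 1476.9 and 1497.2 in WT, a narrow range, to 764.2, 945.1, 540.7 and 536 in KO. The groups were clearly separate, with a log2 fold change of -1.16 (SE 0.18, adjusted p = 0.00174 in limma). Tnfrsf25, death receptor 3 of T cells, was higher in all KO libraries (112.9 to 252.3) than in WT (58.5 to 112.5) but did not pass (0.69, SE 0.32, adjusted p = 0.11 in limma), with KO replicate 4 far above the rest. It passed under quantile normalization (0.94, adjusted p = 0.0473 in limma).

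Neither the TRAIL gene nor its death receptor gave a call. Tnfsf10, the TRAIL gene, was at 283.5, 604.9, 464.1 and 486.9 in WT and 513.7, 506.7, 461.1 and 485.1 in KO, and apart from a low WT replicate 1 the groups held similar values. The 95% interval of its log2 fold change ran from -0.32 to 0.62. Tnfrsf10b, the only mouse TRAIL death receptor, was at 276.1, 252.9, 195.9 and 230.3 in WT and 276.9, 296.5, 203.2 and 294.7 in KO. Its interval ran from -0.21 to 0.53. Its decoy relatives lie side by side on chromosome 7 with Tnfrsf26. Tnfrsf23 fell (-0.89, SE 0.23, adjusted p = 0.0145 in limma), from 291.9 ± 70.4 to 158.0 ± 43.43 (SD, n = 4), while Tnfrsf22, at 194.9 ± 25.72 and 234.0 ± 34.98, did not pass. Tnfrsf22 was at 0.49 to 0.888 times the level of Tnfrsf23 per exon length in WT and at 1.17 to 1.65 times in KO. Tnfrsf26, a receptor of the same cluster that lacks a death domain, had 278.9, 74, 156.9 and 80.5 in WT and 34.5, 46.1, 33.3 and 23 in KO. It spread widely in WT, with replicate 1 highest, but stayed above KO throughout, and its log2 fold change was -1.90 (SE 0.43, adjusted p = 0.00881 in limma). An antisense gene shares 4.1% of the exon bases of Tnfrsf23 and 3.3% of those of Tnfrsf26.

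**Figure D3:**
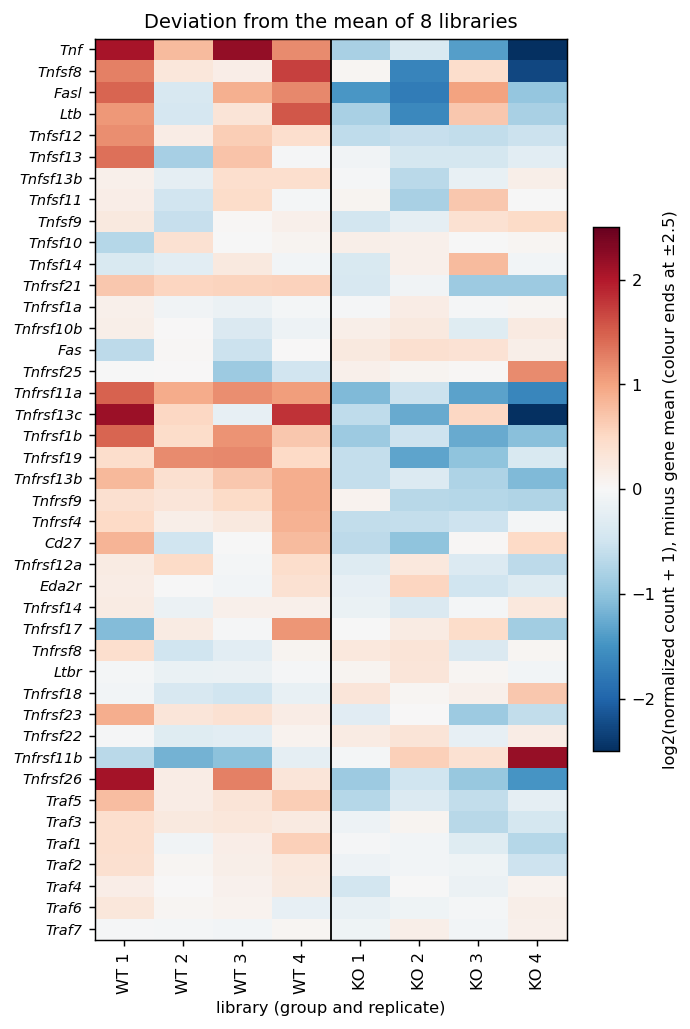
Deviation of each library (columns) from the mean of the 8 libraries, in log2(normalized count + 1), for the 42 tested genes (rows) in the order of the plot of fold changes. Tnf, Tnfrsf11a, Tnfrsf1b, Tnfrsf13b and Tnfrsf26 are above their means in all 4 WT libraries, Tnfrsf11b stands out in KO replicate 4, and Ltb, Fasl and Tnfsf8 are above their means in KO replicate 3 as in most WT libraries.

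Of the T cell costimulatory receptors, Tnfrsf4 and Tnfrsf9 fell and Tnfrsf18 rose. Tnfrsf4, which encodes OX40, fell from 35.05 ± 8.54 to 18.44 ± 3.905 (SD, n = 4; log2 fold change -0.88, adjusted p = 0.0233 in limma). Tnfrsf9, which encodes 4-1BB, fell from 19.41 ± 4.02 to 9.07 ± 3.151 (SD, n = 4; -1.05, adjusted p = 0.0228 in limma). Both calls were near the threshold. That of Tnfrsf4 was lost under quantile normalization (adjusted p = 0.116 in limma) and when any of 5 libraries was dropped: WT replicates 1 (0.0553) and 4 (0.0559) and KO replicates 1 (0.0562), 2 (0.0523) and 3 (0.0515). For Tnfrsf9 it was lost under quantile normalization (0.0734) and when WT replicate 3 (0.0575) or 4 (0.0571) or KO replicate 2 (0.051) or 3 (0.0519) was dropped. Tnfrsf18, the gene of GITR, a receptor of regulatory T cells, rose instead, from 69.6 to 93.6 in WT to 101.7 to 157.7 in KO (0.57, SE 0.18, adjusted p = 0.0359 in limma). That call did not hold without WT replicate 2 (0.0762), 3 (0.0971) or 4 (0.0506), or without KO replicate 1 (0.0765) or 4 (0.0758). An antisense gene, Gm16008, covers 27.2% of the exon bases of Tnfrsf18, and reads of the pair cannot be told apart if strand was not counted. Tnfrsf4 and Tnfrsf18 are neighbours on chromosome 4, and per exon length Tnfrsf18 was at 1.67 to 2.41 times the level of Tnfrsf4 in WT and at 5.6 to 6.78 times in KO.

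Several ligands of T cell receptors were too low to be tested. Tnfsf4, the OX40 ligand, had 22 reads over the 4 WT libraries and 3 over the 4 KO libraries, Tnfsf18, the GITR ligand, had 24 and 7, and Tnfsf15, the ligand of death receptor 3, had 30 and 11. Those 3 and Lta were the members left untested, and with no filter on low values 16 members were lower, against 14 with it. Tnfsf9, the 4-1BB ligand (16.09 ± 3.818 in WT, 17.43 ± 5.699 in KO), Tnfsf14 (23.85 ± 4.985 and 29.28 ± 11.15) and Tnfrsf8 (29.83 ± 8.814 and 32.6 ± 6.657, all SD, n = 4) overlapped between the groups. Tnfsf8, the CD30 ligand, was at 17.6 to 53.4 in WT and 2.4 to 21.5 in KO and did not pass (-1.72, SE 0.67, adjusted p = 0.0688 in limma). It passed without KO replicate 3 (-2.15, adjusted p = 0.0374 in limma). Cd27, a receptor of T cells and memory B cells, was at 44.2 to 112.8 and 30.8 to 88.5.

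Lymphotoxin beta and its receptor, which organise lymphoid tissue, did not pass. Ltb had 384.4, 134.6, 223.7 and 530 in WT and 102.3, 58.1, 289.1 and 101.9 in KO, so KO replicate 3 exceeded WT replicates 2 and 3. Its log2 fold change was -1.27 (SE 0.55, adjusted p = 0.0956 in limma), and it passed without WT replicate 2 (-1.62, adjusted p = 0.0455 in limma) or KO replicate 3 (-1.71, 0.029). Ltbr was at 2400.6, 2219.5, 2242.8 and 2440.1 in WT and 2592.4, 3061.8, 2570.1 and 2370.9 in KO, and the 95% interval ran from -0.02 to 0.39. Tnfrsf14, the gene of HVEM, which shares the ligand LIGHT with Ltbr, had 243.6 ± 25.26 in WT and 221.1 ± 41.31 in KO (SD, n = 4). Eda2r, a receptor of ectodysplasin A2, had 114.1 ± 16.64 and 98.9 ± 35.0 (SD, n = 4), and its interval was -0.79 to 0.29. Tnfrsf19, the receptor TROY, fell from 62.13 ± 17.72 to 19.06 ± 5.667 (SD, n = 4; -1.65, SE 0.30, adjusted p = 0.0032 in limma).

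Receptor transcripts as a set were dominated by few genes. Per exon length, Tnfrsf1a made up 32.2% ± 1.52 of the summed level of the 24 receptors in WT and 41.9% ± 0.846 in KO (SD, n = 4). Ltbr made up 15.2% ± 1.18 and 21.2% ± 1.25. Tnfrsf1b went from 22.3% ± 5.08, the second rank, to 7.51% ± 1.05, the fourth, and Tnfrsf11a from 3.29% ± 0.237 to 0.84% ± 0.213. Shares sum to 100 in each library, so a lower Tnfrsf1b share raises the others, and the Tnfrsf1a level itself gave no call. Among the 15 ligands, Tnfsf12 held 56.0% ± 5.81 in WT and 48.8% ± 5.81 in KO, and Tnf 4.18% ± 1.47 and 1.18% ± 0.911.

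**Figure D4:**
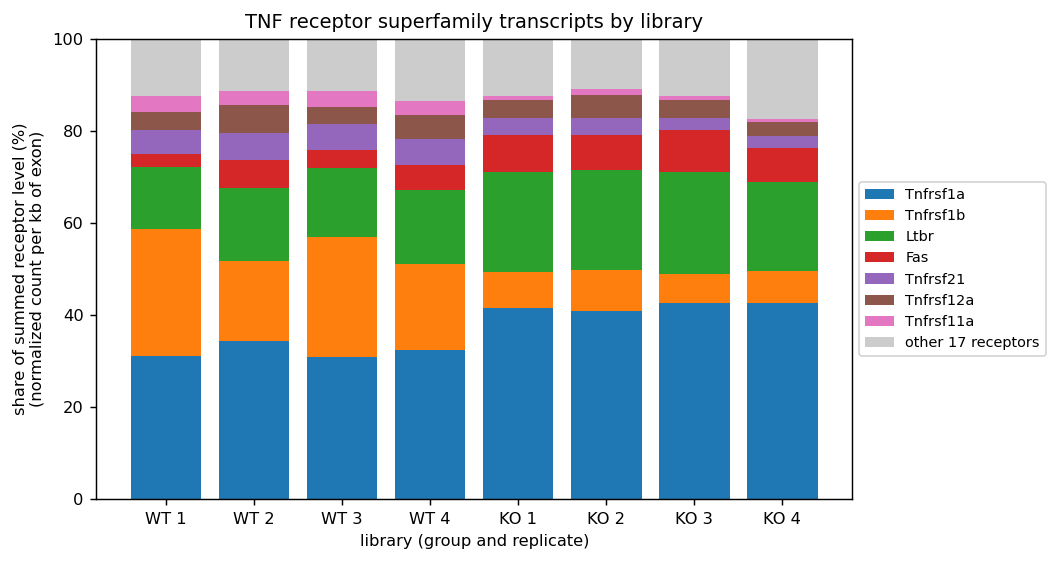
Share of the summed level of the 24 receptors, in percent of normalized counts per kilobase of exon, held by 7 named receptors and by the other 17 together in each library. The Tnfrsf1b segment averages 22.3% in WT and 7.51% in KO, and the Tnfrsf1a segment 32.2% and 41.9%.

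The TRAF adaptors, which link the receptors to kinases and ubiquitin ligases, fell in 3 of 7 members, or 42.9% against 21.5% of all genes, and rose in 0, against 20.2% (limma; 0 rose also at an unadjusted p under 0.05 and in edgeR and DESeq2). Traf5, which binds CD27, OX40 and related receptors, fell most, from 401.9 ± 73.46 to 207.1 ± 32.54 (SD, n = 4; -0.95, SE 0.16, adjusted p = 0.00268 in limma). Traf3, a brake on the non-canonical NF-kappaB pathway, fell by 0.59 (SE 0.15, adjusted p = 0.016 in limma), from 1206 ± 72.41 to 817.2 ± 186.9 (SD, n = 4). Traf2, the adaptor of both TNF receptors, had 815.5, 635.7, 677.7 and 734.1 in WT and 559.6, 585.4, 567.5 and 426.9 in KO. Its libraries did not overlap, but the fall of 0.42 (SE 0.12, adjusted p = 0.0249 in limma) was lost under quantile normalization (0.0502) and without WT replicate 1 (0.0617) or WT replicate 4 (0.053). Traf1, itself a target of NF-kappaB, missed the threshold at 338.5, 235.6, 284.1 and 383 in WT and 247.1, 240.1, 204.2 and 152.8 in KO (-0.55, SE 0.20, adjusted p = 0.0533 in limma), and passed in DESeq2 (adjusted p = 0.0288) and without WT replicate 2 (adjusted p = 0.0286 in limma). Traf4, Traf6 and Traf7 overlapped between groups, and the interval for Traf7, the most abundant TRAF per exon length, ran from -0.13 to 0.23.

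Downstream of the receptors, NF-kappaB factors and their kinases fell in 8 of 17 tested genes and rose in 0, beside 21.5% and 20.2% of all genes (limma; 0 also at an unadjusted p under 0.05, and 0 in edgeR and DESeq2 after adjustment). The median log2 fold change was -0.39, and leaving out KO replicate 2 gave 1 rise. Rel, the c-Rel subunit of lymphoid and myeloid cells, fell from 432.1 ± 77.19 to 173.2 ± 20.36 (SD, n = 4; -1.30, SE 0.15, adjusted p = 0.000627 in limma). Nfkb1 fell by 0.39, Nfkb2 by 0.62 and the kinase gene Ikbke by 1.09, while Rela did not pass (-0.10, adjusted p = 0.232 in limma). In the list of adaptor and death signalling genes 9 of 27 fell and 5 rose, which for the rises is near the all-gene share of 20.2% (21.5% of all genes fell). Ripk3, a kinase of necroptosis, fell from 531.7 ± 147.2 to 259.6 ± 42.1 (SD, n = 4). The log2 fold change of Otulin, a deubiquitinase of linear chains, was -0.78. The 5 rises were Tab3 (1.07), Map3k5 (0.56), Birc2 (0.28), Rbck1 (0.28) and Xiap (0.23). Their number dropped to 2 without WT replicate 3, KO replicate 3 or KO replicate 4 and to 3 without WT replicate 1, WT replicate 4 or KO replicate 1. Tradd, Fadd and Ripk1, the adaptors next to TNFR1, did not pass.

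Genes that TNF is known to induce fell in 7 of 22 tested members and rose in 1, Mmp9, against 21.5% and 20.2% of all genes, and the 8 that passed are a smaller share than the 41.7% over all genes. The log2 fold change of Birc3 was -0.73 (adjusted p = 0.004 in limma), that of the endothelial selectin Sele -1.81 (0.00412), that of Tnfaip2 -1.74 (0.00688) and that of the adhesion molecule Vcam1 -0.87 (0.0123). Among inhibitors of the pathway, Nfkbia had a log2 fold change of 0.27 (adjusted p = 0.104 in limma) and Tnfaip3, the gene of A20, one of -0.30 (adjusted p = 0.188 in limma), and neither passed. Nfkbie (-0.92, adjusted p = 0.00894), Tnip1 (-0.45, 0.0135) and Cyld (-0.19, 0.0283), from the other lists and named after their values were seen, were lower in limma. The single rise was lost when WT replicate 1, 2 or 3 or KO replicate 1 or 4 was left out. Genes that release TNF from the cell surface or control its mRNA fell in 4 of 10 members and rose in 1 (21.5% and 20.2% of all genes). Adam17, the protease that sheds TNF and both its receptors, fell from 2503 ± 500 to 1182 ± 252.9 (SD, n = 4; -1.09, SE 0.18, adjusted p = 0.00247 in limma), Frmd8, a partner of the iRhom proteins, by 0.90, Litaf by 0.96 and Adam10 by 0.59. The rise was in Rhbdf1, which encodes iRhom1 (0.49, SE 0.12, adjusted p = 0.0125 in limma).

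A list of superfamily genes whose symbols lie outside the rule also holds the adaptor gene Edaradd and the RELT-like gene Rell1. It fell in 5 of 7 tested genes, these included, and rose in 1 (21.5% and 20.2% of all genes). Cd40, a receptor of B cells and myeloid cells, was at 195.4, 174.1, 181.9 and 185.4 in WT and 97.7, 106.8, 80.6 and 54.6 in KO, a narrow WT group well above KO (-1.15, SE 0.21, adjusted p = 0.00334 in limma). Edar, the ectodysplasin receptor of epithelia, had 114.7, 195.2, 148.5 and 17.8 in WT and at most 1.7 in KO (-5.85, SE 0.75, adjusted p = 0.000879 in limma), and its adaptor Edaradd fell by 1.40. The epididymal marker sum was no lower than 53526 in WT and no higher than 1338 in KO, and its part in the Edar result was not tested. Edar was lowest among WT libraries in replicate 4, where the epididymal list was mixed. Adam7 (0.9) and Rnase9 (2.8) were near 0 there, while Akr1b7 (80635.9), Serpina1f (7052.4) and Defb42 (1440.1) were at their highest of the WT group. The ligand gene Eda went the other way, from 201.1 ± 46.08 to 309.3 ± 28.44 (SD, n = 4; 0.65, SE 0.18, adjusted p = 0.0191 in limma). Rell1 fell by 0.89 and Ngfr by 1.38, while Relt gave no call. When the filter was instead a mean normalized count of at least 50, 3 genes of this list fell.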

How the data were processed

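RNA of 8 epididymal fat libraries was measured, and group and replicate number were taken from the sample labels. The signal deposited by the authors is a normalized count per gene and library. Per the submitters' processing notes, the tools were STAR 2.7.7 and DESeq2 and the build was GRCm38.p6, with no roles stated. No source used here gives the read counter, strand setting or annotation. In each library 100.0% of values above 0 were whole multiples of 1 step (tolerance 0.01 of a read), which gave back whole reads. Gene identifiers were matched to GENCODE M21 (24802 of 24821 without version), which gave symbols, coordinates and exon lengths.

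limma 3.58.1 in R 4.3.3, with a variance trend and robust moderation, was fitted to log2(normalized count + 1) with group alone, for the 17798 genes with at least 10 in at least 4 libraries. All adjusted p-values are over those genes. A larger pseudocount gave smaller fold changes for low genes such as Tnf and Fasl. Even so, the falls of Tnf, Fasl and Tnfrsf13c were smaller in edgeR and DESeq2 than in limma. Those of Tnfrsf4, Tnfrsf9 and Tnfrsf19 were larger in edgeR and DESeq2. Because a count test needs whole reads, edgeR 4.0.16 (quasi-likelihood) and DESeq2 1.42.0 were run on the recovered reads and served as alternatives, beside other pseudocounts, filters and scalings, a replicate block and leaving out each library. The fit was tested on simulated data. Promoters come from RefSeq on GRCm38.p6.

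Members, lists and tests were chosen with earlier results of these data known. Values in every library are given for members that passed with a mean of at least 50 and a change of at least 2-fold, and for 18 members set by name. The result of 1 gene of these lists is not reported here.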

Additional observations from a re-analysis of the deposited data

Results flagged for a closer look

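In 6 cases a single library lay far from the other 3 of its group, by Dixon's criterion at 95%, which chance meets in about 1 of 20 groups; 85 groups of 4 were examined. KO replicate 4 accounts for 4 of them: Tnfrsf11b at 605.2 (128.7 to 201.7 in the other KO libraries), Tnfrsf25 at 252.3 (112.9 to 121.8), Tnfrsf4 at 24.3 (16.1 to 17.2) and Traf2, low, at 426.9 (559.6 to 585.4). KO replicate 3 held Fasl at 17.2 (1.7 to 3.6 in the others), and KO replicate 1 held Tnfrsf9 at 13.8 (7.3 to 7.7).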

How the results depend on the processing

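Under 18 alternatives, 11 of the 17 genes that passed kept their call and direction in every fit that included them: Tnf, Tnfrsf11a, Tnfrsf1b, Tnfrsf13b, Tnfrsf19, Tnfrsf21, Tnfrsf23, Tnfrsf26, Tnfsf12, Traf3 and Traf5. The other 6 (Fas, Tnfrsf11b, Tnfrsf18, Tnfrsf4, Tnfrsf9, Traf2) lost it in 3 to 7 fits. With single libraries left out, 11 to 17 members were lower and 0 to 2 higher, and 5641 to 7079 genes passed in all. Without WT replicate 4 and KO replicate 3 together, 13 members were lower and 3 higher. edgeR called the same 17 members as limma and DESeq2 those and 2 more. Quantile normalization shifted the all-gene median by 0.104 (log2) and the calls to 4593 higher and 3257 lower (3592 and 3831 as reported); 4 members were then higher and 11 lower. Same-numbered WT and KO libraries did not deviate together (correlations -0.143, 0.051, -0.041 and 0.172), so the number was not taken as a pairing; with a replicate block 6266 genes passed, 12 members lower and 3 higher, Tnfrsf9 and Traf2 being lost (limma adjusted p = 0.0694 and 0.054). Signs turned only in members that did not pass: Eda2r (0.0034), Tnfrsf17 (0.20) and Tnfsf11 (0.35) under quantile normalization, Tnfsf11 in edgeR (0.018) and Tnfrsf17 without WT replicate 4 and KO replicate 3 (0.08). With single libraries left out, the log2 fold change spanned -0.48 to 0.25 for Tnfrsf17, -0.00055 to 0.31 for Tnfrsf8, -0.068 to 0.30 for Tnfsf10, -0.27 to 0.22 for Tnfsf11 and -0.09 to 0.25 for Tnfsf9. The cause of these shifts was not tested. Depth limits Lta, Tnfsf4, Tnfsf15 and Tnfsf18, which the filter on low values left out of the main test. Without that filter 19 members passed, the 17 of the main fit and 2 of these 4 ligands, both lower. All KO libraries of Lta and Tnfsf4 lay below all WT libraries, at few reads.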
